A study of Mus musculus with 22 samples.

Results

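The set described here is 10 genes grouped as ligands from liver endothelium towards hepatocytes and their neighbours, though other cells can make some of them: Wnt2, Wnt9b, Rspo3, Rspo1, Hgf, Bmp2, Bmp6, Dkk3, Igf1 and Kitl. They were taken by symbol from a table of read counts that lists 55367 genes, with no threshold on their values, and all 10 of 10 passed the filter on low counts that left 22409 genes to test. The series has RNA-seq of 22 mouse liver libraries, whose cells are labelled HSC (as a rule short for hepatic stellate cells). Of these, 10 came from chow-fed mice labelled Control, with 3 libraries at zeitgeber time (ZT) 0, 2 at ZT6, 2 at ZT12 and 3 at ZT18. The other 12, with 3 at each of the same 4 times, came from mice given CDA-HFD (Research Diet), a high-fat diet that is choline-deficient and amino-acid adapted and serves as a model of steatohepatitis with fibrosis. ZT0 is lights on and ZT12 lights off. All mice are given as 20 weeks old, the diet began at 8 weeks of age, and no strain, genotype or sex is given for any group. The diet is said to have lasted 12 weeks in one label and 6 months in another. The 12 weeks match the stated ages of 8 and 20 weeks and the 6 months do not, but which label is right is not known here. Whether each library is its own animal is not stated, so p-values speak only of the spread among libraries, part of which may be technical.

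As background, the liver lobule is zoned. Hepatocytes next to the central vein and those next to the portal tract run different metabolism. Wnt ligands from central vein and sinusoidal endothelium, made stronger by R-spondins that keep Wnt receptors on the cell surface, hold the central programme in place. Bmp2 and Bmp6 from sinusoidal endothelium tell hepatocytes how much iron the body holds, through the hormone hepcidin (Hamp). Hgf drives hepatocyte growth through the receptor Met, Kitl (stem cell factor) acts on cells that carry Kit, and Igf1 is a growth factor that liver cells and macrophages release.

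The genes lie on 8 chromosomes, with Rspo3, Igf1 and Kitl on chromosome 10 (GENCODE M21 on GRCm38). The widest diet differences below belong to Wnt2 (chr6:17988940-18030585), Bmp6 (chr13:38345107-38500302) and Bmp2 (chr2:133552159-133562885). Igf1 (chr10:87858265-87937042) differed in the other direction. An antisense or opposite-strand gene overlaps Rspo3, Rspo1, Bmp6 and Igf1. The strand setting of the counting is not given in the sources used here, so whether those neighbours touch their counts is not known. Same-strand genes also overlap Rspo3 and Hgf, which no strand setting separates, and the effect of any overlap on the counts was not tested. RefSeq's promoter table held 7 of the 10 members (build GRCm38.p6). The promoters of Wnt9b and Hgf are shown because both ligands were lower under diet while their promoters differ in base composition, and because neither stretch overlaps an annotated exon. Each is the 250 bases before the start, 5′ to 3′ on the gene's own strand, Wnt9b at chr11:103749822-103750071 (minus strand) and Hgf at chr5:16553245-16553494 (plus strand), with capitals for a match to a motif searched.
Wnt9b: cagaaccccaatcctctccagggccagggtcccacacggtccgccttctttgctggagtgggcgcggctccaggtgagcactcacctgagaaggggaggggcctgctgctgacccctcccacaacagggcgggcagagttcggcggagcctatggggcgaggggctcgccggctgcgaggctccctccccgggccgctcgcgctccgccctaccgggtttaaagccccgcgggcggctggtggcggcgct
Hgf: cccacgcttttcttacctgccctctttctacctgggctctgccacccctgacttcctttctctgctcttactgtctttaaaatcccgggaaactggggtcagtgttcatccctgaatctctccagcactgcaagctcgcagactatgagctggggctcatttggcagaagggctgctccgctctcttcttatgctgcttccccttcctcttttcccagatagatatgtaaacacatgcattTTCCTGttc
The Wnt9b stretch was 72% G and C with 22 CG pairs, and the Hgf stretch 50.8% with 4, against a median of 6 CG pairs over 32851 promoters of the same length. The search covered 5 motifs on both strands: the E-box CACGTG, held by 6.02% of those promoters, GATA sites AGATAA or TGATAA (16.6%), ETS sites CAGGAA or CCGGAA (35.1%), the TCF core CTTTGA (13.8%) and the TATA box TATAAA (12.4%). The capitals in Hgf mark 1 ETS match, 9 bases before the start, and none of the 5 motifs stood in the Wnt9b stretch. The table holds 2 starts for Hgf, and the stretch before the second (chr5:16553651-16553900), not shown because 150 of its bases lie in annotated exons, held none of the 5 either. A match of these letters is a description and no binding was measured.

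The libraries held 19754805 to 41665623 counts in genes. Levels below are CPM, a gene's counts scaled by the library total and its TMM factor. The labelled cell type was checked against markers: 20 endothelial markers summed to 25650 to 49330 CPM in chow libraries, and 14 stellate cell markers to 242.9 to 1002 CPM. The highest stellate markers in chow were Ecm1 at 274 ± 56.5 CPM (SD, n = 10) and Dcn at 259 ± 158 CPM, while Des was at 5.82 ± 2.25 CPM and Reln at 2.19 ± 1.47 CPM. No listed marker was at 0 in all libraries. The chow libraries thus held far more endothelial than stellate marker RNA, against their label. There were 2 chow libraries that stood apart: replicate 2 of ZT0 lay nearest the diet libraries on the first principal component (-46.6, other chow libraries -126 to -95.8), and replicate 1 of ZT18 was lowest on the second (-110.1). Replicate 2 of chow ZT0 also had the lowest endothelial sum (25650 CPM) and the highest lymphocyte sum (1225 CPM) of the chow libraries. Replicate 2 of chow ZT6 was highest on the second component (68.2) and had the highest macrophage sum in chow (2714 CPM). It was not counted among the 2 and was left out only in the fits that left out each library. Test results that rest on either of those 2 are given with and without them, while likeness between genes is given with all 22 libraries only.

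The first comparison asks whether diet changed the ligand genes over all 4 times. Of the 10, 9 fell and Igf1 rose. Wnt2, Bmp6, Bmp2 and Wnt9b fell most, with log2 changes from -4.55 to -4.00, and Hgf and Rspo1 least, at -1.74 and -1.87. A gene is called changed at a Benjamini-Hochberg adjusted p under 0.05 over all 22409 genes, from edgeR's quasi-likelihood test. Of all genes tested, 24.9% were called lower under diet and 27.5% higher, so calls are common in this contrast. The members' median log2 change was -2.85, against 0.08 over all genes tested. In 6 of the 10 (Wnt2, Wnt9b, Rspo3, Bmp2, Bmp6 and Kitl) every diet library lay below every chow library, as did 9.78% of all genes, and no member had every diet library above every chow library (7.35% of all genes). Without the 2 chow libraries that stood apart, Hgf and Dkk3 joined them, making 8 (background 11.8% below and 9.1% above). Scaling by library size alone moved the split of all called genes from 5587 lower and 6161 higher to 4557 and 7635 and the median over all genes from 0.08 to 0.25. Under that scaling the members kept their directions, with log2 changes of -4.36 for Wnt2 and 1.90 for Igf1, from which the shifted median is not subtracted.

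**Figure D1:**
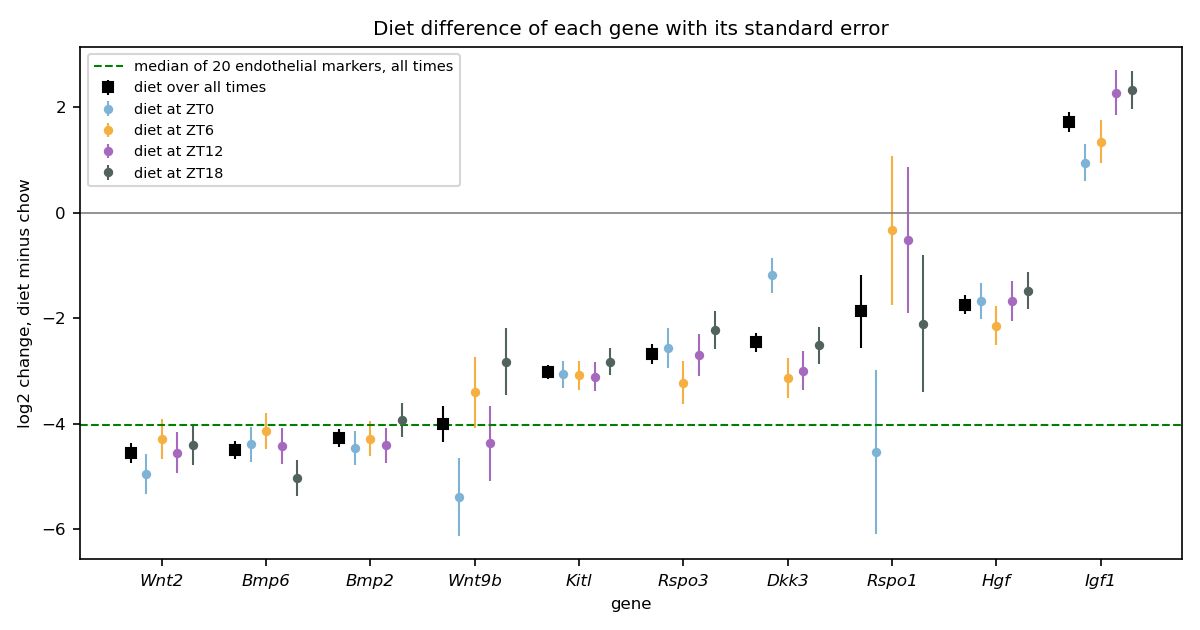
Log2 change, diet minus chow, of each ligand gene over all times (black squares) and at each zeitgeber time (coloured points), with bars for 1 standard error and a dashed line at the median of 20 endothelial markers (-4.03). Over all times 9 genes lie below 0, Wnt2, Bmp6 and Bmp2 below the dashed line, and Igf1 lies above 0 at all 4 times.

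The same libraries differed in the RNA of many cell types. All 20 endothelial markers were called lower under diet, with a median log2 change of -4.03 and a summed level of 1660 to 3926 CPM, below every chow library. Among them the receptor Kdr changed by -4.55 ± 0.11 (SE) and the scavenger receptor Stab1 by -4.37 ± 0.12. In the other direction, 9 of 12 macrophage markers rose and 1 fell (sum 438.7 to 2714 CPM in chow, 1801 to 4105 under diet). All 10 lymphocyte markers (303.7 to 1225 against 1736 to 4236 CPM), all 8 cholangiocyte markers (348.7 to 929 against 1271 to 4868 CPM) and all 11 measured hepatocyte markers (398.4 to 799.3 against 1032 to 2425 CPM) rose. Of 14 stellate cell markers, 4 fell, 3 rose and 7 were not called (sum 145.8 to 463.4 CPM under diet). The part of these shifts in the ligand results was not tested. In bulk libraries, fewer endothelial cells and less ligand RNA per cell cannot be told apart.

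Among the Wnt ligands, Wnt2 was the more abundant. Wnt2 ran from 199 to 771 CPM in chow (median 466) and from 12.0 to 40.4 CPM under diet (median 20.1). The groups did not overlap, and the lowest chow value was replicate 2 of ZT0, with the other 9 at 426 CPM or more. Its log2 change was -4.55 ± 0.19 (edgeR adjusted p = 3.07e-14). Wnt9b, made chiefly by central vein endothelium, ran from 5.2 to 22.1 CPM in chow (median 14.3) and from 0 to 1.94 CPM under diet (median 0.872). Replicate 2 of diet ZT0 had no Wnt9b count, which allows up to 0.129 CPM (the level of 3 counts, for counting error only). Wnt9b changed by -4.00 ± 0.34 (edgeR adjusted p = 3.16e-09), and its 3 chow libraries at ZT18 (5.2, 8.78 and 7.70 CPM) were, with replicate 2 of ZT0 (5.75 CPM), the 4 lowest in chow. At single times the fall of Wnt9b ranged from -5.39 at ZT0 to -2.83 at ZT18.

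R-spondins bind Lgr receptors and keep the ligases Znrf3 and Rnf43 from clearing Wnt receptors. Rspo3, the R-spondin most tied to the central vein, ran from 14.5 to 79.3 CPM in chow (median 38.3) and from 3.22 to 11.1 CPM under diet (median 5.70). The highest diet library, replicate 2 of ZT18, still lay under the lowest chow library. Rspo3 changed by -2.67 ± 0.19 (edgeR adjusted p = 2.01e-10). Rspo1 was rare and uneven. It ran from 0.218 to 5.70 CPM in chow (median 1.94) and from 0 to 3.04 CPM under diet (median 0.430), and the groups overlapped widely. In 3 diet libraries it had no count, which allows 0.101 to 0.129 CPM. Its change over all times, -1.87 ± 0.70, was called (edgeR adjusted p = 0.0292), but the call was lost when any of 5 single libraries was left out: replicate 1 of chow ZT6 (-1.39, adjusted p = 0.152), replicate 2 of chow ZT12 (-1.55, 0.0996), replicate 1 of chow ZT18 (-1.68, 0.0565), and replicate 1 or 2 of diet ZT0 (-1.71 and -1.73, 0.0507 and 0.0504). At ZT0, where 143 counts in chow stood against 6 under diet, Rspo1 changed by -4.53 (edgeR adjusted p = 0.0323). It was not called at ZT6 (-0.33), ZT12 (-0.51) or ZT18 (-2.10, edgeR adjusted p = 0.242). Leaving out replicate 3 of chow ZT0 or replicate 1 or 2 of diet ZT0 ended the ZT0 call (edgeR adjusted p = 0.0835, 0.109 and 0.111).

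Both bone morphogenetic proteins fell. Bmp2 ran from 461 to 1300.0 CPM in chow (median 844) and from 29.0 to 85.1 CPM under diet (median 42.5). The lowest chow library was again replicate 2 of ZT0, and the groups did not overlap. Bmp2 changed by -4.27 ± 0.16 (edgeR adjusted p = 8.35e-15). Bmp6 ran from 30.5 to 96.3 CPM in chow (median 62.7) and from 1.34 to 3.98 CPM under diet (median 2.92), also with no overlap. Its change was -4.49 ± 0.17 (edgeR adjusted p = 7.57e-15). At single times Bmp2 changed by between -4.46 and -3.93 and Bmp6 by between -5.03 and -4.13, all called.

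The growth factor ligands went both ways. Hgf ran from 9.05 to 49.8 CPM in chow (median 25.2) and from 6.38 to 14.1 CPM under diet (median 7.99). Its only chow library within the diet range was replicate 2 of ZT0, at 9.05 CPM, with the next at 16.7 CPM. Hgf changed by -1.74 ± 0.18 (edgeR adjusted p = 5.17e-08). Kitl ran from 32.7 to 71.7 CPM in chow (median 51.7) and from 3.44 to 10.9 CPM under diet (median 6.56), with no overlap. It changed by -3.02 ± 0.13 (edgeR adjusted p = 6.88e-14), and its values at the 4 times lay close together, from -3.10 to -2.82.

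Igf1 was the member that rose. It ran from 8.08 to 32.0 CPM in chow (median 14.8) and from 31.9 to 99.0 CPM under diet (median 48.5). The groups met at 1 point: replicate 2 of chow ZT6 (32.0 CPM) was level with replicate 3 of diet ZT0 (31.9 CPM). That chow library also had the highest macrophage sum (2714 CPM) and hepatocyte sum (799.3 CPM) in chow. Its change over all times was 1.72 ± 0.20 (edgeR adjusted p = 1.94e-07). The change was called at ZT0 (0.95, edgeR adjusted p = 0.0483), ZT6 (1.35, 0.0154), ZT12 (2.28, 0.000311) and ZT18 (2.33, 4.34e-05). The ZT0 call was lost in 11 of 22 fits that left out 1 library (edgeR adjusted p up to 0.147) and without the 2 chow libraries that stood apart (0.103). The ZT6 call was lost without replicate 1 of chow ZT6 (0.83, edgeR adjusted p = 0.279) or replicate 1 of diet ZT6 (1.16, 0.0568). Over all fits that left out 1 library the ZT6 change of Igf1 ran from 0.83 to 2.1. Macrophage and hepatocyte marker sums, given above, were higher in the diet libraries, and their part in the Igf1 result was not tested.

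Dkk3, a secreted protein of the dickkopf family, was below Bmp2 and Wnt2 in abundance and above the other members in chow. It ran from 26.2 to 260.0 CPM in chow (median 146) and from 18.4 to 41.2 CPM under diet (median 25.7). Replicate 2 of chow ZT0 (26.2 CPM) lay inside the diet range and the other 9 chow libraries, at 74.1 CPM or more, lay above it. Over all times Dkk3 changed by -2.45 ± 0.18 (edgeR adjusted p = 2.42e-10). At the 4 times in turn, from ZT0 on, its log2 change was -1.19, -3.13, -2.99 and -2.51. The ZT0 value, called at an edgeR adjusted p of 0.00985, was not called without replicate 1 of chow ZT0 (-0.80, 0.0972) or replicate 2 of diet ZT0 (-0.98, 0.0593), and it was -1.56 without replicate 2 of chow ZT0.

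**Figure D2:**
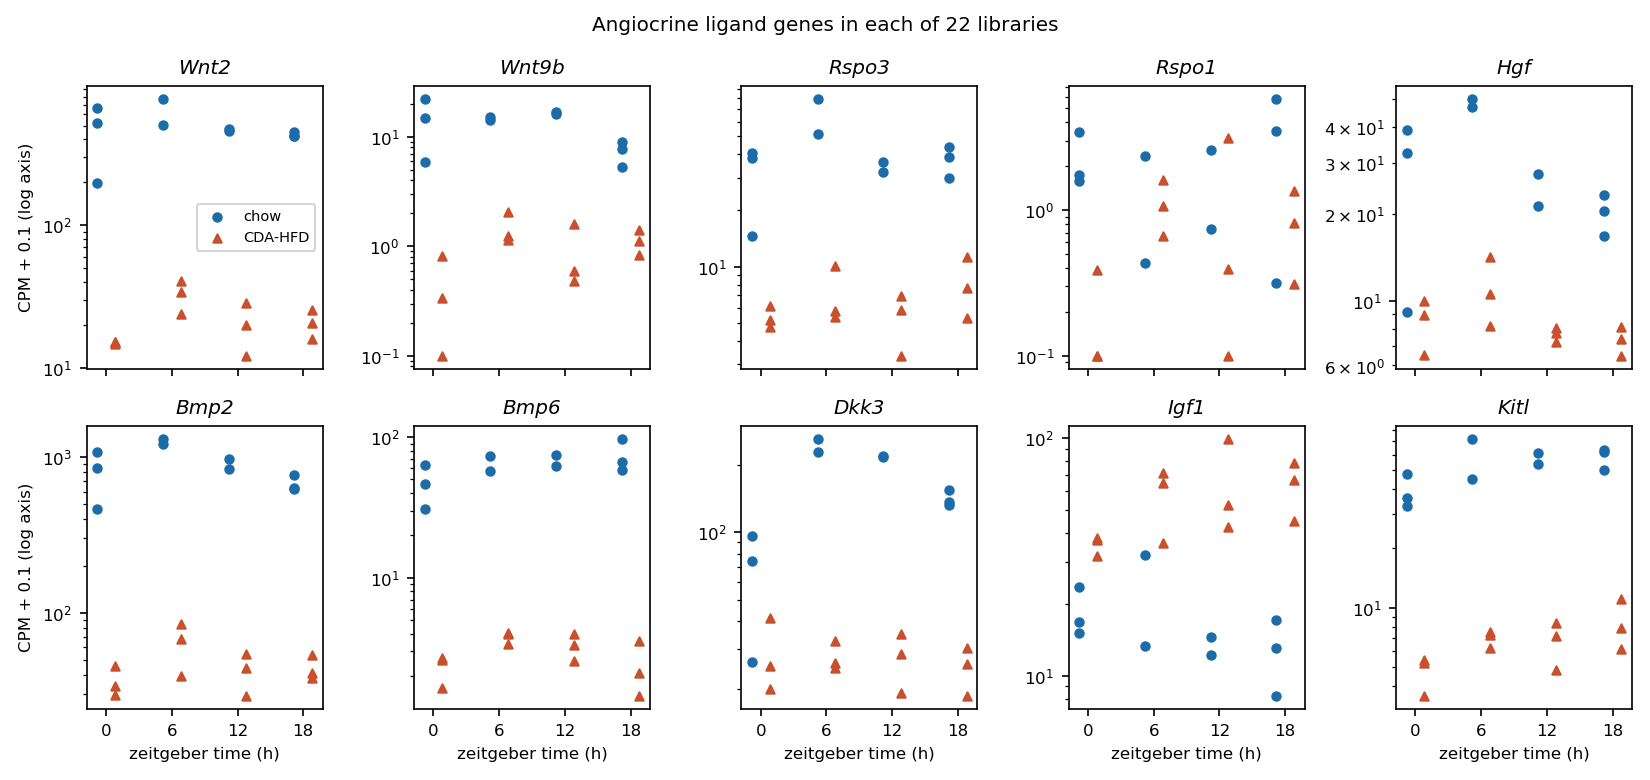
CPM plus 0.1 (log axis, scaled separately in each panel) of the 10 ligand genes in each of 22 libraries against zeitgeber time, with circles for chow and triangles for CDA-HFD. In Wnt2, Wnt9b, Rspo3, Bmp2, Bmp6 and Kitl all triangles lie under all circles, while Rspo1 overlaps widely and Igf1 is higher under CDA-HFD.

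By single times the counts were even. At ZT0, 10 members were called, 9 lower and 1 higher (16.5% and 13.5% of all genes). At ZT6, ZT12 and ZT18, 9 were called each time, 8 lower and Igf1 higher, and Rspo1 was the member not called. The background was 15.3% lower and 14.8% higher at ZT6, 15.3% and 14.3% at ZT12, and 15.5% and 15.3% at ZT18.

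Compared per length of exon, Bmp2 and Wnt2 led in chow. Their levels were 245 ± 75.7 and 217 ± 67.4 CPM per kb (SD, n = 10), then Dkk3 at 45.9 ± 22.5, Bmp6 at 16.1 ± 4.49, Rspo3 at 13.1 ± 5.40, Kitl at 8.84 ± 2.10, Hgf at 3.97 ± 1.84, Wnt9b at 2.79 ± 1.22, Igf1 at 1.67 ± 0.683 and Rspo1 at 1.11 ± 0.872. Neighbours in this order differed by less than the larger of their SDs, except Wnt2 and Dkk3, Dkk3 and Bmp6, and Kitl and Hgf. Under diet the order was Bmp2 (13.2 ± 4.64 CPM per kb, n = 12), Wnt2 (9.76 ± 3.84), Dkk3 (8.09 ± 2.03), Igf1 (5.58 ± 2.11), Rspo3 (2.06 ± 0.728), Hgf (1.19 ± 0.301), Kitl (1.12 ± 0.330), Bmp6 (0.731 ± 0.234), Rspo1 (0.380 ± 0.456) and Wnt9b (0.194 ± 0.124). Here Bmp2 and Wnt2, Wnt2 and Dkk3, Hgf and Kitl, Bmp6 and Rspo1, and Rspo1 and Wnt9b were within the larger SD of each other. Igf1 was thus above only Rspo1 in chow and below only Bmp2, Wnt2 and Dkk3 under diet. With the length of the longest transcript, Hgf was 8.23 in chow and 2.46 CPM per kb under diet, then just above Rspo3.

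Set against the endothelial markers, the ligands fell into several ranges. Each library's CPM was divided by its summed CPM of the 20 endothelial markers and given per 1000 CPM of that sum, as a description with no test. The median of Bmp2 was 21.6 in chow and 19.4 under diet, a ratio of 0.897, that of Bmp6 was 1.53 and 1.18 (0.767), that of Wnt2 was 12.0 and 8.76 (0.730), and that of Wnt9b was 0.303 and 0.353 (1.16). These ratios lay inside the range of the 20 markers' own, from 0.710 to 3.18 with a median of 1.01. Kitl (1.36 and 2.65, 1.95), Dkk3 (4.35 and 10.8, 2.48) and Rspo3 (0.924 and 2.41, 2.60) also lay inside it, above its median. Few markers set the ends of that range. Their highest ratios were 3.18 (Lyve1), 2.46 (Pecam1) and 1.58 (Cdh5), so Dkk3 and Rspo3 lay above every marker but the highest. These 3, named after their values were seen, changed by -2.42, -2.76 and -3.25, less than Wnt2, Bmp6 and Bmp2. The sum is weighted to abundant markers such as Eng (5990 CPM in chow) and Stab2 (5140 CPM). The ratios thus depend on the markers chosen, and other sums were not tried. At the low end the ratios were 0.710 and then 0.770, so Wnt2 and Bmp6 lay below every marker but the lowest. Rspo1, at a ratio of 3.25 from few counts, Hgf (0.662 and 3.39, 5.12) and Igf1 (0.369 and 19.6, 53.2) lay outside the range. For Hgf, Dkk3 and Igf1 every diet library was above every chow library, and for no member below. The same held for 65.6% of all tested genes above and 0.0178% below, since the sum itself fell, so the members' 3 of 10 is under the background.

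**Figure D3:**
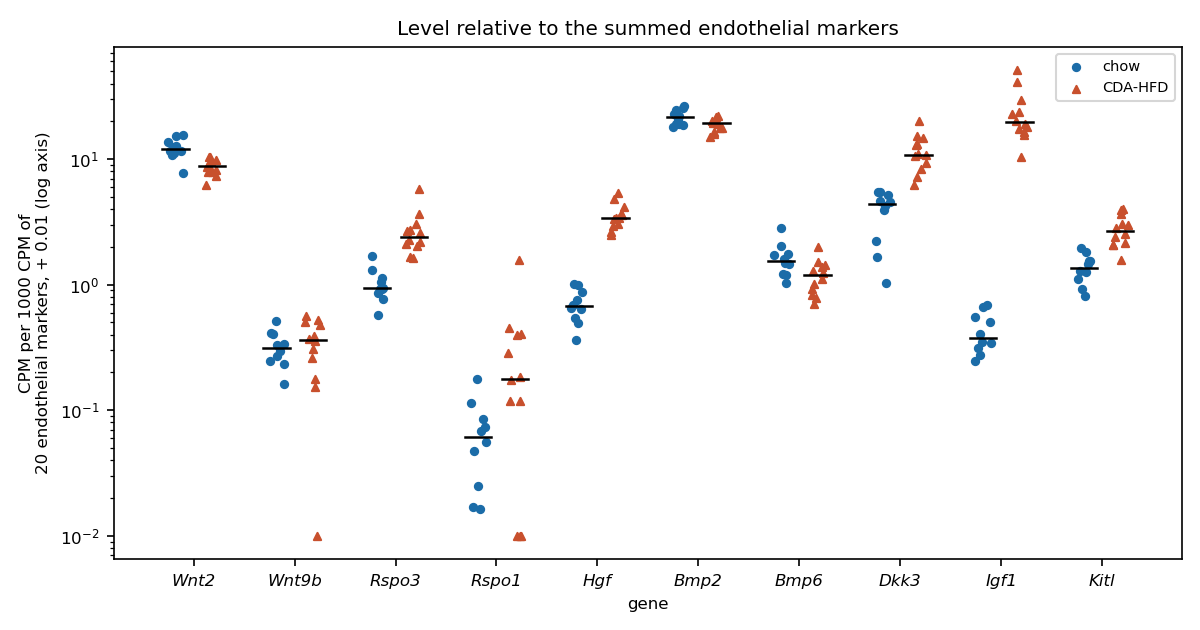
CPM of each ligand gene per 1000 CPM of 20 summed endothelial markers, plus 0.01 (log axis), in 10 chow libraries (circles) and 12 CDA-HFD libraries (triangles), with bars at the medians. The medians of Wnt2, Wnt9b, Bmp2 and Bmp6 lie close in both groups, and those of Hgf and Igf1 lie higher under CDA-HFD.

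Expression was also compared over the 4 times of day. In chow, 1 member was called (5.74% of all genes): Dkk3 (F test over 4 times, edgeR adjusted p = 0.0105). Its chow values were 96.1, 26.2 and 74.1 CPM at ZT0, 227 and 260.0 at ZT6, 220.0 and 217 at ZT12, and 155, 132 and 137 at ZT18. Each ZT6 and ZT12 library lay above each library of the other times, and the call held in all 22 fits that left out 1 library (edgeR adjusted p 0.00544 to 0.0319). Under diet the means of Dkk3 were 28.8 ± 11.1, 27.7 ± 4.27, 27.5 ± 8.05 and 24.8 ± 6.03 CPM at ZT0, ZT6, ZT12 and ZT18 (SD, n = 3), with no call (edgeR adjusted p = 0.999). Hgf was next in chow, at 48.1 ± 2.31 CPM at ZT6 (n = 2) against means of 20.1 to 26.8 CPM at the other times. It was not called (edgeR adjusted p = 0.135), but was called without replicate 2 of chow ZT0 (0.00364) and with DESeq2 (adjusted p = 0.0350). Of the marker lists, 11 of 12 macrophage markers and 1 of 20 endothelial markers were called over time in chow, and their part in these results was not tested.

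Under diet edgeR called no member over time (1.08% of all genes), with 3 at an unadjusted p under 0.05 (Wnt2, Bmp2 and Kitl, against 2642 of 22409 genes). DESeq2 called none, with 4. Wnt2 means were 14.9 ± 0.251, 32.6 ± 8.43, 20.0 ± 8.02 and 20.5 ± 4.70 CPM at ZT0, ZT6, ZT12 and ZT18 (edgeR adjusted p = 0.281, and 0.0466 without replicate 2 of chow ZT0). The diet by time interaction tests whether the diet difference itself varied over the day. It was called for no member by edgeR (0.959% of all genes), with 2 at an unadjusted p under 0.05 (against 3241 of 22409 genes), and for 1 by DESeq2. That 1 was Dkk3 (edgeR adjusted p = 0.106, DESeq2 0.00565), which edgeR called without replicate 2 of chow ZT0 (0.0456). The other, Igf1, was not called (edgeR adjusted p = 0.298). Without the filter on low counts edgeR called 3 interactions, Dkk3 (adjusted p = 4.18e-16), Igf1 (6.42e-06) and Wnt9b (0.00669). The Igf1 and Wnt9b calls were absent from edgeR with the filter and from DESeq2, and the reason for this difference between fits was not tested.

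**Figure D4:**
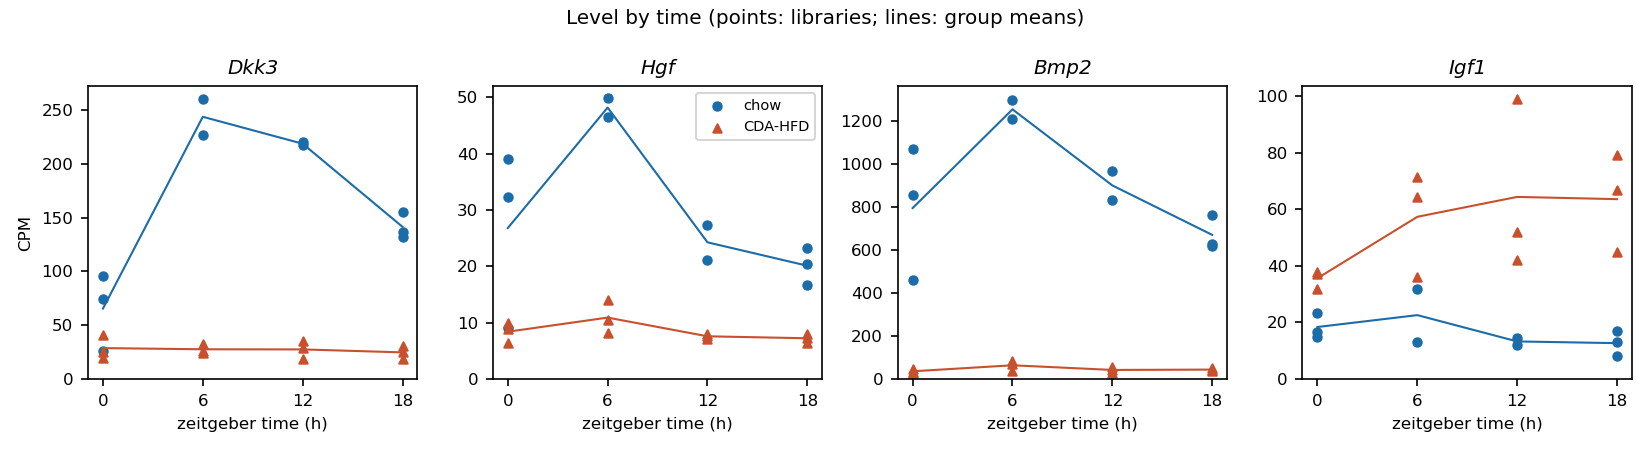
CPM of Dkk3, Hgf, Bmp2 and Igf1 against zeitgeber time, with 1 point for each library (circles chow, triangles CDA-HFD) and lines through group means. Chow Dkk3 is highest at ZT6 and ZT12 and is near flat under CDA-HFD, and 1 chow library at ZT0 is low for Dkk3, Hgf and Bmp2.

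Likeness between genes was measured within groups, as Pearson's r of each gene's deviations from the 8 group means over 22 libraries. Points share libraries, depth and cell mixture, and r is a description. Bmp2 was most like Selenop (r = 0.96), Fcgr2b and Eng (0.95 each), and Wnt2 most like Stab2, Ehd3 and Vps8 (0.92 each). Stab2, Fcgr2b and Eng are endothelial markers. Wnt9b was most like Tmem44 (0.89), Afap1l1 and Tmem246, Bmp6 like Rab3il1 (0.88), Bahcc1 and Tom1l2, and Hgf like Slc29a1 (0.92), Ap2a2 and Cav2. Rspo3 was most like Cfl2 (0.89), Fam3a and Ankrd46, Dkk3 like Fam174b, Fhl1 (0.88 each) and Calml4, Kitl like Nadk2, Cryzl2 (0.80 each) and Slc25a51, and Rspo1 like Timp2 (0.84), Sema5a and Txndc5. Igf1 stood apart, with Ccl6 (0.89), Cd5l (0.88) and Folr2 (0.86), genes known from macrophages. Between members r was highest for Wnt2 and Bmp2 (0.88) and was -0.33 for Igf1 and Wnt2.

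The rest of the Wnt pathway was mixed. Of 17 tested other Wnt and R-spondin ligands and secretion genes, 3 fell, 5 rose and 9 were not called, with a median log2 change of 0.14. Wls, which carries Wnts to the cell surface, fell from 199 ± 28.4 to 68.1 ± 8.21 CPM (SD, n = 10 and 12 here and below; log2 change -1.56 ± 0.08, SE), and Porcn, which acylates Wnts, from 16.7 ± 6.13 to 2.84 ± 1.57 CPM. Wnt10a rose by 2.31 ± 0.50 from a level under 1 CPM, and Wnt5a (2.14 against 2.26 CPM) and Wnt4 (1.55 against 1.92 CPM) were not called. Among 17 Wnt and R-spondin receptors, 7 fell and 6 rose (median -0.82). Fzd4, an endothelial Frizzled, changed by -3.93 ± 0.17 and the co-receptors Lrp5 and Lrp6 by -2.47 ± 0.14 and -2.27 ± 0.13. Of 14 inhibitors and feedback genes, 5 fell and 4 rose (median -0.42). Nkd1 changed by -3.73 ± 0.23 and the ligase Rnf43 by 3.19 ± 0.28, while Axin2, a common readout of the pathway, was not called (5.54 ± 2.95 against 6.25 ± 2.09 CPM).

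Most BMP pathway genes tested were lower or not called. Of 21 BMP ligands, receptors and SMADs besides the members, 13 fell and 1 rose, with a median of -1.25. The co-receptor Eng changed by -4.07 ± 0.12, the type II receptor Bmpr2 by -2.89 ± 0.10, the co-receptor Rgmb by -2.03 ± 0.13 and Acvrl1 by -1.32 ± 0.08. Among 15 BMP inhibitors and targets, 7 fell and 3 rose (median -1.04). The targets Id3 and Id4 changed by -1.92 ± 0.08 and -2.69 ± 0.18, and the inhibitor Smad6 by -2.97 ± 0.15. Hamp rose from 1.04 ± 0.859 to 4.74 ± 1.36 CPM (2.37 ± 0.22), and Smad7 (12.1 against 11 CPM) and Atoh8 (7.69 against 8.77 CPM) were not called. Of 20 receptors and partners of HGF, IGF and KIT, 9 fell and 10 rose (median -0.29). Kit, the receptor of Kitl, fell from 574 ± 184 to 66.5 ± 11.4 CPM (-3.15 ± 0.14). The binding proteins Igfbp7 and Igfbp4 changed by -3.61 ± 0.10 and -3.70 ± 0.12, and the insulin receptor Insr by -1.39 ± 0.09. Met, the receptor of Hgf, named here after its values were seen because the 4 genes of smallest p in this list all fell, rose from 1.82 ± 1.58 to 9.26 ± 3.27 CPM (2.44 ± 0.51, edgeR adjusted p = 0.000352). All measured hepatocyte markers rose in the same libraries (median log2 change 1.63), and their part in the Hamp and Met results was not tested.

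Endothelial genes of both sides of the lobule were lower. All 7 genes known from the central side fell (median -3.19), among them Cdh13 (-4.26 ± 0.14) and Rab3b (-4.03 ± 0.21), and all 7 known from the portal side (median -2.66), among them Ltbp4 (-4.09 ± 0.11) and the Notch ligand Dll4 (-3.93 ± 0.12). Of 12 hepatocyte genes known from the central zone, 2 fell, 4 rose and 6 were not called (median 0.85). Glul is glutamine synthetase of the last cells before the central vein and a textbook Wnt target. Its level fell from 102 ± 33.2 to 45.0 ± 4.44 CPM (-1.19 ± 0.10). Oat also fell (-0.39 ± 0.06), while Aldh1a1 (1.15 ± 0.16) and Lect2 (2.44 ± 0.54) rose and Cyp2e1 (21.7 against 32.7 CPM) was not called. For scale, the hepatocyte marker Alb rose from 136 ± 31.9 to 515 ± 141 CPM. Which cells the Glul and Oat RNA came from was not tested, so their fall is not read as one of central hepatocytes. Of 12 known from the portal zone, 2 fell, 3 rose and 7 were not called (median 0.03), with Arg1 (16.2 against 19.6 CPM) and Cps1 (3.89 against 3.61 CPM) not called. Hepatocyte markers rose in these libraries as given above, and the part of that shift in the zone genes was not tested.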

How the data were processed

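The deposited file used here holds whole-number read counts per gene symbol. The submitters' processing notes name STAR 2.7.9a as aligner, the build GRCm38 (mm10), HTSeq for counting and DESeq2. The deposited normalised table was not used. The sources used here give no cell isolation, annotation, strand setting or batch. No table entry lacks a gene name. Columns were matched to samples by description and groups taken from titles.

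Counts were tested in R 4.3.3 with edgeR 4.0.16 (limma 3.58.1): filterByExpr over the 8 groups, TMM scaling and a quasi-likelihood fit of 8 group means over all 22 libraries, which share 1 estimate of the spread, since 2 chow groups are of size 2. Tested were the 4 differences of diet from chow, their mean, F tests over time on each diet and the interaction, with Benjamini-Hochberg adjustment over 22409 genes and a threshold of 0.05. The SE is the log2 change divided by the root of F. The script was tested on simulated data. Log2 CPM for likeness, principal components and the endothelial score used a prior count of 2. With 19754805 or more counts per library, 3 counts correspond to about 0.1 CPM.

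The members and the other 16 lists were chosen with earlier results of these data known, so no list is independent evidence of its direction. Besides all members, the text may name from each list up to 4 called genes with the smallest p and up to 2 not called with the highest mean CPM, and the 3 genes most like each member. One listed hepatocyte symbol was not in the table. Eng and Kit each stand in 2 lists. Gene positions and lengths (union of exons) came from GENCODE M21 and promoters from RefSeq. Alternatives were a replicate block, DESeq2 1.42.0, RLE or library size scaling, a filter at mean CPM 5 or none, an endothelial score as covariate, the longest transcript, leaving out the 2 chow libraries that stood apart, and leaving out each library.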

Additional observations from a re-analysis of the deposited data

How the results depend on the processing

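Scaling, filters, DESeq2 and the replicate block left the direction of all 10 diet differences over all times as reported; Rspo1 was not tested at a mean CPM of at least 5. With an endothelial score as covariate (1.60 to 2.46 in chow, -2.31 to -1.09 under diet, log2, so it separates the diets) edgeR called 0 members over all times and 0 at each single time, and 0 of all genes, with 1, 1, 0, 1 and 1 members and 800, 943, 835, 749 and 1184 genes at an unadjusted p under 0.05. Log2 changes over all times then reversed for Wnt2 (1.69), Wnt9b (2.96), Rspo3 (0.44), Hgf (3.27), Bmp2 (1.24), Dkk3 (1.49) and Igf1 (-0.07), none called. Igf1 also reversed at ZT0 (-0.99) and ZT6 (-0.39), Dkk3 at ZT0 (3.15), ZT6 (0.69), ZT12 (0.91) and ZT18 (1.21), and Rspo1 at ZT6 (0.67) and ZT12 (0.54). Since the score separates the diets, this fit cannot decide the direction of any diet difference. Without a filter, 6 members were called over time in chow, 6 under diet and 3 for the interaction (Dkk3, Igf1 and Wnt9b). DESeq2 called 2 over time in chow and 1 for the interaction, leaving out the 2 chow libraries that stood apart gave 2 over time in chow, and the covariate gave 1 for the interaction (Dkk3, edgeR adjusted p = 0.0388). The cause of these shifts was not tested. For these time and interaction counts the share of all genes called in the same fit is not given here, so they are no result about the members.

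Leaving out 1 library at a time gave 9 to 10 members called over all times, 7 to 10 at ZT0, 8 to 9 at ZT6, 9 in each fit at ZT12, likewise 9 at ZT18, 1 to 2 over time in chow, 0 to 1 under diet and 0 to 1 for the interaction. Rspo1 ran from -1.15 to 1.58 at ZT6 and from -3.41 to 0.78 at ZT12 and reversed at ZT6 without replicate 1 of chow ZT6 (1.58), at ZT12 without replicate 2 of chow ZT12 (0.78) and without replicate 3 of diet ZT12 (0.08), not called in any. Groups of 2 then hold 1 library, which is assumed to vary like the others. The share of all genes called in each of these fits is not given here. Libraries that share only a replicate number did not deviate together (mean r = -0.005 over 71 pairs, against 0.002 over 140 others). The replicate block changed no diet call over all times (Wnt2 -4.56, Rspo1 -1.98), and moved Rspo1 at ZT6 to 0.16. Per-length levels moved by more than 1 SD with the longest transcript for Hgf in chow (8.23 CPM per kb) and under diet (2.46) and for Igf1 under diet (7.83). Depth limits Rspo1 most, at 0 to 137 counts per library.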
